A study of Mus musculus with 8 samples.

Results

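The Gimap genes encode a small family of GTPases that sit on intracellular membranes, mostly of lymphocytes, and that are named GTPases of immunity-associated proteins. In mice the family lies side by side on chromosome 6. Loss of some single members shortens the life of T and B cells. Several of the proteins are known to act on membranes of the lysosome, the mitochondrion or the autophagosome. All genes of the table whose symbol is Gimap followed by a number were taken as the family, which gave 8 of the 54532 genes in the table: Gimap1, Gimap3, Gimap4, Gimap5, Gimap6, Gimap7, Gimap8 and Gimap9. All 8 had enough reads to be among the 13560 genes tested.

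They were measured by RNA-Seq in 4 Zeb1-/- EpCAM+ and 4 Zeb1-/- EpCAM- libraries of LSK cells, the lineage-negative, Sca-1+, c-Kit+ compartment of bone marrow that holds stem cells and their first progeny. ZEB1 is a zinc finger factor that represses epithelial genes, and EpCAM is a cell adhesion protein of epithelia. The mice were C57BL/6, aged 8 to 12 weeks, and carried Mx1-Cre, which pIpC switches on through interferon in blood cells and in other tissues, and cells were taken on day 14, counted from the end of pIpC. Both fractions thus share the genotype and the treatment, and there are no libraries of undeleted mice to compare with. The label of both fractions is the sort gate, so a fraction is a mixture of the cell types that pass it. For every gene in these bulk samples, fewer cells of a type and less RNA per cell cannot be told apart.

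The libraries held 14114491 to 17073546 counted reads, and no 2 libraries of a fraction were duplicates. Epcam itself had 2818 to 3580 counts in EpCAM+ libraries and 144, 51, 21 and 17 counts in EpCAM- replicates 1 to 4. Zeb1 gave 19.5 ± 3.75 CPM (reads of a gene scaled to the size of the library, SD, n = 4) in EpCAM+ and 11.9 ± 2.14 CPM (SD, n = 4) in EpCAM- libraries, from 129 to 373 counts in a library. It was called higher in EpCAM+ (log2 fold change 0.72, SE 0.17, adjusted p = 0.00798). Reads of a cut allele and of a whole one are counted alike, so these counts do not show how complete the deletion was in either fraction. The gate genes Kit (log2 fold change 0.45, SE 0.14), Ly6a, which encodes Sca-1 (2.28, SE 0.53), and Ptprc, which encodes CD45 (0.63, SE 0.14), were present in all libraries and higher in EpCAM+, and Cd34 did not pass the test (0.28, SE 0.13, adjusted p = 0.104) except with the replicate number as a block (adjusted p = 0.0485). Kit no longer passed without EpCAM+ replicate 1 or 3 or without EpCAM- replicate 2, 3 or 4.

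The 8 members span 123.618 kb of chromosome 6 (chr6:48647234-48770851, GRCm38.p6), in the order Gimap8, Gimap9, Gimap4, Gimap6, Gimap7, Gimap1, Gimap5 and Gimap3. Gimap6 and Gimap3 are read from the minus strand and the other 6 from the plus strand. The stretches upstream of the annotated starts were searched, on both strands, for the letters of sites bound by factors of stem cells and lymphocytes, since the members moved together between the fractions. RefSeq windows of 250 bases before to 50 bases after the start were found for all 8 members (GRCm38.p6, 9 windows, since Gimap8 has an alternative start). CAGGTG, an E-box that ZEB1 binds, was present in the window of Gimap9 and of no other member, and in 20.2% of all 32851 promoter windows. Other forms of the ZEB1 site were not searched for. TGTGGT, a core site of RUNX factors, was present in the windows of Gimap1, Gimap4 and Gimap7, each time on the reverse strand as ACCACA, and in 16.8% of all windows. GTAAACA, a FOXO site, was present 247 bases before the start of Gimap3 and in 3.65% of all windows. CCGGAAG (ETS) and CACACCC (KLF) were in none of the 9 windows, against 8.86% and 7.95% of all. The motifs do not overlap each other in these windows. A match of letters shows neither binding nor an effect, and both fractions come from mice with Zeb1 deleted. Gimap9, Gimap4, Gimap7 and Gimap1 carry a match within 150 bases before the start and are shown because these matches set them apart from the others. The bases are written 5′ to 3′ on the strand of the gene, with the match in capitals, from chr6:48675985-48676134 (Gimap9), chr6:48684428-48684577 (Gimap4), chr6:48718471-48718620 (Gimap7) and chr6:48738897-48739046 (Gimap1), all on the plus strand.
Gimap9: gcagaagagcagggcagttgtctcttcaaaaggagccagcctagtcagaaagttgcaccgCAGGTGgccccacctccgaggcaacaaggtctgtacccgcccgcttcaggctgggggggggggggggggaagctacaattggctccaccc
Gimap4: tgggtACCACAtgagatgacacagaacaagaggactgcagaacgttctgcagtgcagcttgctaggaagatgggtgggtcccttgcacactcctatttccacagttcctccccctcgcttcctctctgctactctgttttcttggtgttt
Gimap7: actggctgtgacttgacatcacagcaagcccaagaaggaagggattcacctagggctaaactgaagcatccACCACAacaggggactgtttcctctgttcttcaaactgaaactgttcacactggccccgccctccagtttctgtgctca
Gimap1: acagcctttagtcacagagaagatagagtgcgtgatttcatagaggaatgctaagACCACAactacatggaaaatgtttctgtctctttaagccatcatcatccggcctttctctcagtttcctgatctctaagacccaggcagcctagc
The E-box of Gimap9 starts 90 bases before its start, and the RUNX letters start 145 bases before that of Gimap4, 79 before that of Gimap7 and 95 before that of Gimap1. Gimap9, the only member with CAGGTG in its window, had the smallest difference between the fractions of the 8. A link between the match and this difference was not tested.

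All 8 members were higher in Zeb1-/- EpCAM+ than in Zeb1-/- EpCAM- HSPCs (edgeR's quasi-likelihood test, adjusted p from 0.000146 to 0.00543 over all 13560 genes), where 21.8% of all tested genes were called higher. None was lower by edgeR, by DESeq2 or at an unadjusted p under 0.05, against 20.8% of all tested genes called lower. For all 8 members the 4 EpCAM+ values lay above the 4 EpCAM- values, which held for 20.1% of all tested genes. It follows from this separation that each member was higher in EpCAM+ in all 4 pairs of libraries with the same number. The median log2 fold change of the members was 1.75, against 0.02 for all tested genes, and 7 of the 8 were over 2-fold higher. Scaling moved the balance of all calls but no member: 51.2% of all calls were higher with TMM, against 63.6% with upper-quartile scaling and 62.7% with library totals, where the median of all genes was 0.11 in both cases.

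**Figure D1:**
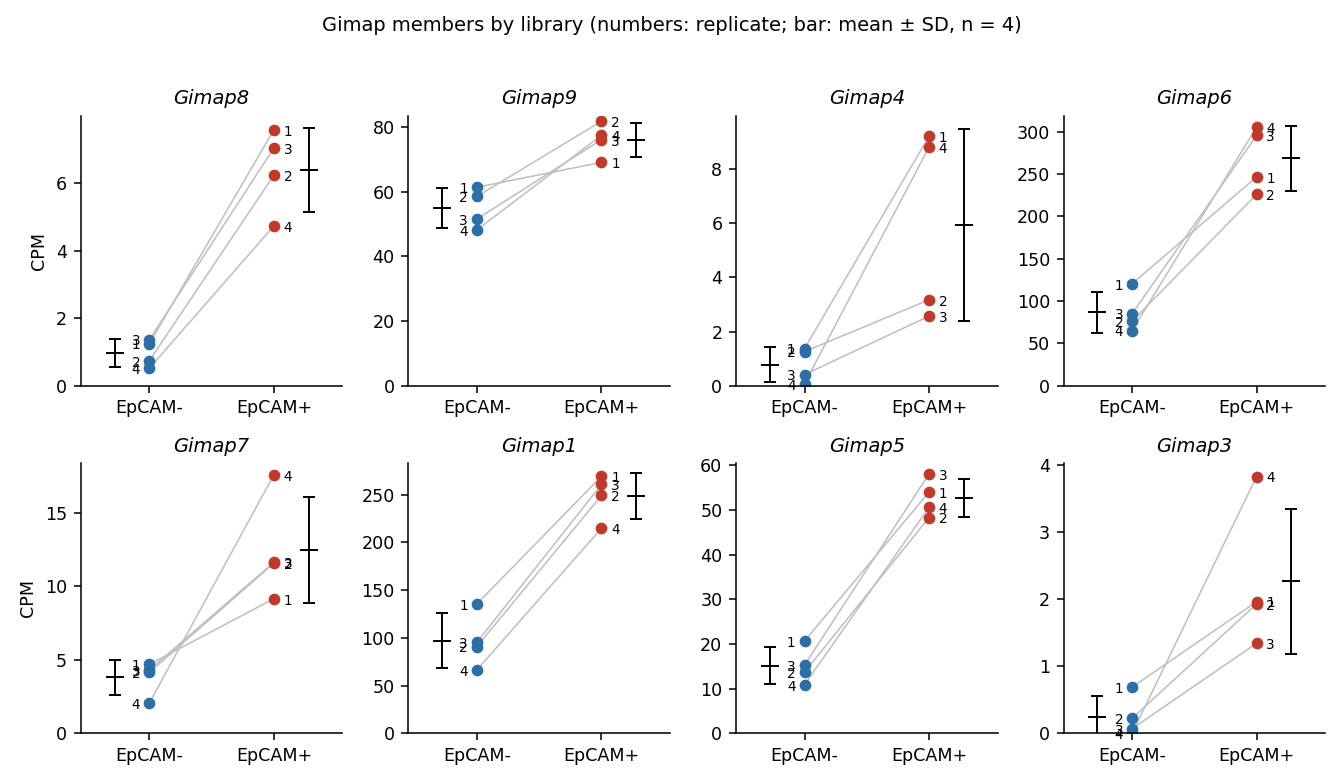
CPM of each Gimap member (vertical axes, each from 0) in the 4 EpCAM- libraries (blue) and the 4 EpCAM+ libraries (red), with replicate numbers beside the points, grey lines between libraries of the same number and bars for mean ± SD (n = 4). In all 8 panels the red points lie above the blue ones, closest in Gimap9, and Gimap4 splits into 2 high and 2 low EpCAM+ libraries.

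Gimap1, Gimap6 and Gimap9 gave most of the reads. Together they took 87.5% to 88.7% of the family's counts in EpCAM+ libraries and 91.5% to 93.0% in EpCAM- libraries. Gimap1 is required for mature B and T cells. It measured 269, 249, 261 and 215 CPM in EpCAM+ replicates 1 to 4 and 136, 90.9, 95.3 and 66.5 CPM in EpCAM- replicates 1 to 4. The lowest EpCAM+ library was thus 1.58 times the highest EpCAM- library, and the log2 fold change was 1.35 (SE 0.18, adjusted p = 0.000458).

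Gimap6 binds GABARAPL2, a protein of the autophagosome membrane. It measured 247, 226, 296 and 305 CPM in EpCAM+ and 120, 76.1, 85.2 and 65.2 CPM in EpCAM- replicates 1 to 4, with a log2 fold change of 1.63 (SE 0.18, adjusted p = 0.000211). The fractions were further apart than for Gimap1, since the lowest EpCAM+ value was 1.88 times the highest EpCAM- value. Gimap9 stood apart from the other members. Its values were 69.0, 81.8, 76.1 and 77.4 CPM in EpCAM+ and 61.4, 58.5, 51.5 and 48.2 CPM in EpCAM- replicates 1 to 4. EpCAM+ replicate 1 was only 1.13 times EpCAM- replicate 1, the lowest and the highest library of their fractions. The log2 fold change of Gimap9 was 0.47 (SE 0.09, adjusted p = 0.00288), and 22.6% of all tested genes had a larger one, whereas 6.52% had a larger one than Gimap1 and fewer for the other 6 members.

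Gimap5 and Gimap3 are neighbours that arose by duplication and whose products are linked to the survival of T cells and to proteins of the BCL2 family. Loss of Gimap5, a lysosomal protein, causes lymphopenia in rats and mice. Gimap5 measured 54.0, 48.3, 58.1 and 50.6 CPM in EpCAM+ and 20.7, 13.7, 15.3 and 10.9 CPM in EpCAM- replicates 1 to 4. The EpCAM+ libraries varied little among themselves (coefficient of variation 8.06%), and every one was at least 2.34 times the highest EpCAM- library, EpCAM- replicate 1. Its log2 fold change was 1.80 (SE 0.17), with the smallest adjusted p of the family (0.000146). Gimap3 had few reads, 30, 34, 24 and 59 counts in EpCAM+ and 11, 3, 1 and 0 counts in EpCAM- replicates 1 to 4. EpCAM+ replicate 4 was high, and EpCAM- replicate 1 held 11 of the reads that the EpCAM- libraries had. The fitted log2 fold change of 3.10 (SE 0.68, adjusted p = 0.00477), the largest of the 8, therefore rests on few reads and became 4.44 without EpCAM- replicate 1, with the other 7 single libraries left out giving 2.72 to 3.29. The longest open reading frames of Gimap3 and Gimap5 are 90.6% identical over their aligned bases, and the longest stretch that their transcripts share without a mismatch is 140 bases, against reads of 150 bases at each end. In the other 27 pairs of members the longest such stretch was 17 bases. How reads that fit both genes were counted is not given in the sources used here, so the small counts of Gimap3 are uncertain beside the larger ones of Gimap5.

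Gimap8, Gimap4 and Gimap7 were low. Gimap8, the largest member, which carries several GTPase domains, had 116, 110, 126 and 73 counts in EpCAM+ and 20, 10, 20 and 7 counts in EpCAM- replicates 1 to 4. This is 6.40 ± 1.24 CPM against 0.967 ± 0.406 CPM (SD, n = 4), a log2 fold change of 2.70 (SE 0.31, adjusted p = 0.000242), and the widest gap of the family, since the lowest EpCAM+ value was 3.47 times the highest EpCAM- value. Gimap7 is a GTPase that becomes active as a dimer. It measured 9.15, 11.6, 11.6 and 17.6 CPM in EpCAM+ and 4.68, 4.14, 4.30 and 2.06 CPM in EpCAM- replicates 1 to 4, with a log2 fold change of 1.71 (SE 0.27, adjusted p = 0.00105). Replicate 4 was the highest Gimap7 library of EpCAM+ and the lowest of EpCAM-.

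Gimap4, which speeds the death of T cells once it has begun, was the most variable member among EpCAM+ libraries. It had 141, 56, 46 and 136 counts in EpCAM+ and 22, 17, 6 and 1 counts in EpCAM- replicates 1 to 4, or 9.22, 3.18, 2.57 and 8.82 CPM against 1.37, 1.26, 0.410 and 0.0735 CPM. EpCAM+ replicates 1 and 4 were thus at least 2.78 times as high as replicates 2 and 3, and the coefficient of variation was 59.9%. The log2 fold change was 2.90 (SE 0.65, adjusted p = 0.00543, the largest of the family). The same replicates 1 and 4 were the highest for Xcr1, the chemokine receptor of cross-presenting dendritic cells, with 2251, 202, 640 and 2018 counts in EpCAM+ replicates 1 to 4 and 13, 2, 2 and 7 counts in EpCAM-. Clec9a, a receptor of the same cells for dead cell debris, had 420, 22, 92 and 405 counts in EpCAM+ and 9, 0, 0 and 2 in EpCAM-. The lymphoid gene Lsp1 (598, 254, 348 and 555 CPM in EpCAM+) was also highest in replicates 1 and 4. So was Cd52 (338, 98.1, 152 and 364 CPM), named after its values were seen, but not the dendritic cell markers Bst2 and Tcf4. Log2 CPM minus the fraction mean was correlated between Gimap4 and the mean of each gene list. Pearson's r ran from 0.09 (stem cell markers) to 0.92 (lymphoid priming genes), with 0.41 for dendritic cell markers. With EpCAM+ replicates 1 and 4 left out, a setting chosen after these values were seen, Gimap4 no longer passed the test (log2 fold change 1.85, SE 0.66, adjusted p = 0.0677), and the other 7 members did, with Gimap3 at an adjusted p of 0.0389.

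Summed over the 8 members, the family reached 673 ± 35.3 CPM (SD, n = 4) in EpCAM+ and 260 ± 63.5 CPM (SD, n = 4) in EpCAM- libraries, 2.59 times as much. The sums ran from 628 to 713 CPM in EpCAM+ and from 193 to 346 CPM in EpCAM-. Levels of different members were compared only per length. Per kilobase of the table's gene length, which is that of the merged exons, Gimap1 (80.8 ± 7.79 CPM per kb) and Gimap6 (76.8 ± 10.9) led in EpCAM+ and did not differ beyond their spread. Gimap9 (46.3 ± 3.22), Gimap5 (12.7 ± 1.03) and Gimap7 (5.37 ± 1.54) followed, and Gimap4 (3.24 ± 1.94), Gimap8 (1.73 ± 0.335) and Gimap3 (0.879 ± 0.419) came last. Each step from Gimap6 down to Gimap7 was larger than the SDs of the 2 neighbours, and Gimap4 overlapped with Gimap7 and Gimap8, and Gimap8 with Gimap3.

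In EpCAM- libraries Gimap9 came first on this scale (33.4 ± 3.71 CPM per kb), before Gimap1 (31.6 ± 9.32) and Gimap6 (24.8 ± 6.84), and the values of these 3 overlapped. Gimap5 (3.65 ± 0.991) and Gimap7 (1.63 ± 0.507) were lower, and Gimap4 (0.424 ± 0.347), Gimap8 (0.261 ± 0.110) and Gimap3 (0.0948 ± 0.120) were lower still and overlapped. The share of Gimap9 in the family level was 18.7% to 23.0% in EpCAM+ and 30.1% to 40.0% in EpCAM- libraries. That of Gimap6 was 29.9% to 37.7% in EpCAM+ and 23.4% to 27.7% in EpCAM-, and that of Gimap5 was 5.26% to 5.87% in EpCAM+ and 3.55% to 4.01% in EpCAM-. None of these 3 shares overlapped between the fractions, and the share of Gimap1 did, at 30.1% to 38.9% in EpCAM+ and 29.5% to 35.5% in EpCAM-. The order of the top members in EpCAM- depends on the length used. In the deposited FPKM, whose gene lengths match the mean length of a gene's transcripts within 1% for all 8 members, Gimap1 led in EpCAM- (85.2 ± 27.5 FPKM), before Gimap6 (60.6 ± 18.5) and Gimap9 (52.2 ± 6.85), and the share of Gimap9 was again lower in EpCAM+ (12.3% to 15.3%) than in EpCAM- (20.6% to 28.7%).

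**Figure D2:**
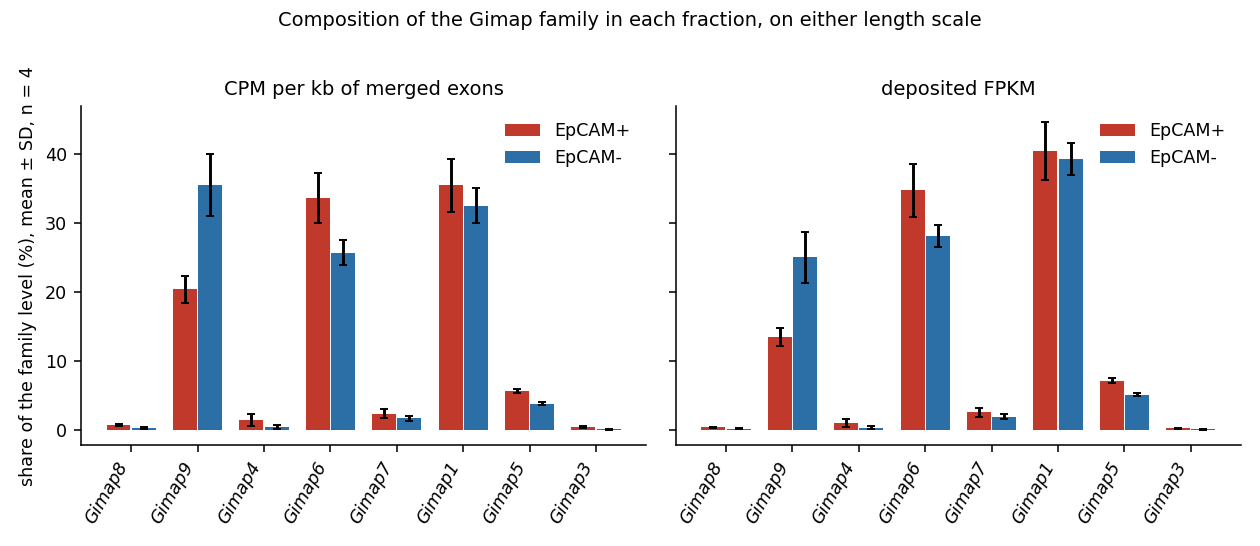
Share of each member in the summed family level per length (vertical axis, percent, mean ± SD, n = 4 per fraction) in EpCAM+ (red) and EpCAM- (blue) libraries, by CPM per kb of merged exons at the left and by deposited FPKM at the right. Gimap1, Gimap6 and Gimap9 hold most of the level on both scales, and the share of Gimap9 is the lower one in EpCAM+ on both.

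Members also differed among libraries of one fraction. In EpCAM- replicate 1, 7 of the 8 members had their highest EpCAM- value, the exception being Gimap8, for which replicate 3 was 1.37 CPM against 1.25 CPM. In EpCAM- replicate 4 all 8 had their lowest. Epcam followed the same order at these ends, with 8.99 CPM in EpCAM- replicate 1 and 1.25 CPM in EpCAM- replicate 4, and so did the stem cell gene Hlf (0.56 above and 0.53 below the EpCAM- mean on the log2 scale). The part of such differences in the result was not tested, but without EpCAM- replicate 1 all 8 members were again higher. Deviations from the fraction means correlated positively in all 28 pairs of members over the 8 libraries (Pearson's r 0.20 to 0.95, median 0.62), highest for Gimap1 with Gimap5 and lowest for Gimap8 with Gimap9. Within the 4 EpCAM- libraries all 28 pairs were positive (median r 0.84), whereas within the 4 EpCAM+ libraries 16 of the 28 were negative (median r -0.24), down to -0.97 for Gimap7 with Gimap1. These 8 points share the depth, the batch and the cell mixture of their libraries. In EpCAM+ libraries the members did not move as one, since replicate 4 was the highest for Gimap3, Gimap6 and Gimap7 and the lowest for Gimap1 and Gimap8.

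**Figure D3:**
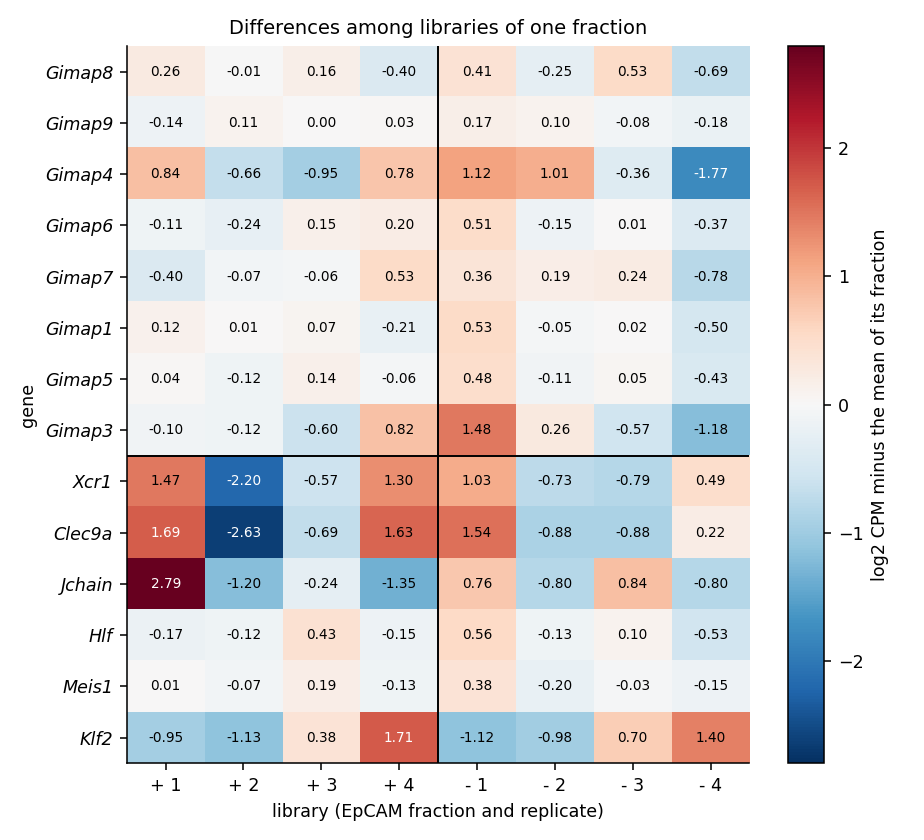
Log2 CPM minus the mean of its fraction (colour and printed value) for the 8 members, above the line, and for Xcr1, Clec9a, Jchain, Hlf, Meis1 and Klf2, below it, in EpCAM+ replicates 1 to 4 and EpCAM- replicates 1 to 4. EpCAM- replicate 1 is above and EpCAM- replicate 4 below the mean for all 8 members, and Gimap4 shares its high EpCAM+ replicates 1 and 4 with Xcr1 and Clec9a.

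The genes whose log2 CPM followed the family's mean pattern most closely over the 8 libraries were Osgin1 (r = 0.995), Tspan14 (0.993), Rdh14 (0.992), Hsd17b14 (0.992) and Rgl2 (0.992), and all 5 were higher in EpCAM+, by 0.31 (Rdh14) to 2.72 (Osgin1) on the log2 scale. Their direction follows from this choice, since the family's pattern over the 8 libraries holds the difference between the fractions. By deviations from the fraction means, which leave the difference between the fractions out, the nearest were Plscr3 (r = 0.989), Zfp28 (0.985), Rdh14 (0.984), Gm16702 (0.983) and A430027C01Rik (0.980). Of these, Rdh14 (0.31, SE 0.08) and Gm16702 (1.67, SE 0.42) were higher in EpCAM+, and Plscr3 had a log2 fold change of 0.03 (SE 0.08). They are the closest of 13552 genes and the correlations are given as a description.

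The table lists 32 other genes between the members and within 200 kb of them, of which 11 could be tested. Gimap1os, an antisense transcript of Gimap1 that shares 1107 exon bases with it (36.0% of the exons of Gimap1), had 92, 78, 92 and 82 counts in EpCAM+ and 24, 16, 7 and 6 counts in EpCAM- replicates 1 to 4. Its log2 fold change was 2.51 (SE 0.36, adjusted p = 0.000633). The kit does not mark strand, so over the 1107 shared bases reads of Gimap1 and of Gimap1os cannot be told apart. The other exon bases of the 3099 of Gimap1os are not in exons of Gimap1. Part of them lies in introns of Gimap1, since Gimap1os (chr6:48738346-48741444) overlaps the Gimap1 gene (chr6:48739054-48743795). Unspliced reads of Gimap1 there cannot be told from reads of Gimap1os either. Gimap1 had at least 40.4 times as many reads. Gm28053, a read-through gene model that shares 81, 198 and 153 exon bases with Gimap7, Gimap1 and Gimap5, had 9, 13, 12 and 7 counts in EpCAM+ and 2, 3, 0 and 7 in EpCAM-, too few for a test.

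Outside the cluster, 4 of 10 tested genes were higher in EpCAM+ and none was lower by edgeR (1 at an unadjusted p under 0.05), with a median log2 fold change of 0.22. Among all tested genes 21.8% were called higher and 20.8% lower, and 10 genes are few to set beside these shares. On the side of Gimap8, the nearest were AI854703 (-0.28, SE 0.15, adjusted p = 0.154) and Zfp775 (-0.08, SE 0.13, adjusted p = 0.631), 13.5 and 24.0 kb away, and Repin1, a zinc finger gene 48.2 kb away, was higher by 0.39 (SE 0.09, adjusted p = 0.00738). On the side of Gimap3, Tmem176b and Tmem176a, a pair of membrane proteins of immature dendritic cells, 63.0 and 70.1 kb away, were higher by 0.58 (SE 0.13, adjusted p = 0.00474) and 0.54 (SE 0.18, adjusted p = 0.0379), and Malsu1, 303 kb away, had -0.13 (SE 0.12, adjusted p = 0.425). The neighbours called higher thus changed less than 7 of the 8 members, with 1 exception that was named after its value was seen. Gm5111, 56.7 kb from Gimap8, had 224, 363, 411 and 264 counts in EpCAM+ and 91, 74, 74 and 24 in EpCAM-, and its log2 fold change was 2.06 (SE 0.30, adjusted p = 0.000674).

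**Figure D4:**
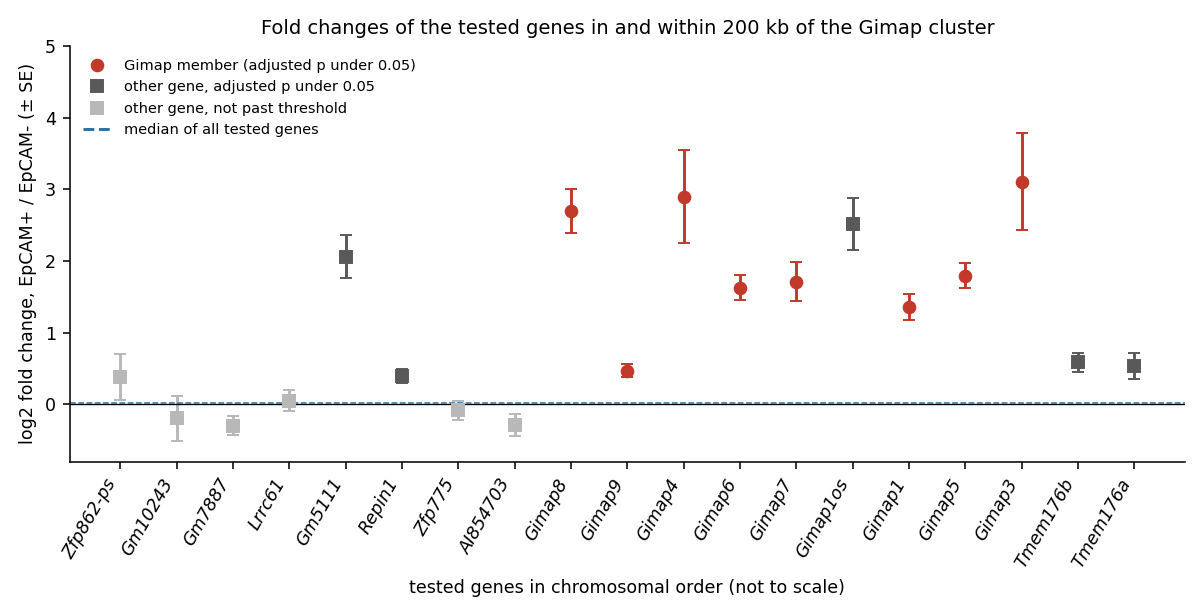
Log2 fold change of EpCAM+ over EpCAM- (vertical axis, ± SE of the edgeR fit, 4 libraries per fraction) for the 19 tested genes of the cluster and of 200 kb on either side, in chromosomal order and not to scale. The members (red circles) lie between 0.47 and 3.10, and of the other genes (squares, dark where adjusted p is under 0.05) only Gimap1os and Gm5111 lie in the range of the 7 members over 2-fold.

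Proteins that GIMAPs bind showed no common direction, beside 21.8% of all tested genes called higher and 20.8% lower. Of the 7 tested genes of this list, 3 were higher, 1 was lower (2 without EpCAM+ replicate 4 or without EpCAM- replicate 4) and 3 did not pass, with a median log2 fold change of 0.15. Gabarapl2, the partner of Gimap6, was higher by 0.43 (SE 0.10), at 113 ± 5.32 against 84.2 ± 12.6 CPM (SD, n = 4), and its relatives Gabarapl1 (0.15, adjusted p = 0.236) and Gabarap (0.06, adjusted p = 0.601) did not pass. Bax, which opens the outer mitochondrial membrane in apoptosis, was lower by 0.52 on the log2 scale (SE 0.08, adjusted p = 0.000740), at 79.5 ± 6.65 against 114 ± 5.07 CPM. Named after their values were seen, the antiapoptotic Bcl2l1 (0.46, SE 0.10) and the kinase Gsk3b (0.27, SE 0.09) were the others that were higher. Gsk3b (adjusted p = 0.0385) no longer passed by DESeq2, with a filter of 1 count in any library, or with 1 library left out in 7 of 8 cases, all but EpCAM+ replicate 2, which leaves 2 genes of the list higher. Bcl2 had -0.36 (SE 0.15, adjusted p = 0.0828).

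Of 14 tested regulators of lymphocyte quiescence and survival, 8 were higher (median 0.42). None was lower by edgeR, by DESeq2 or at an unadjusted p under 0.05, and without EpCAM- replicate 2 there was 1 lower. The shares over all tested genes were 21.8% higher and 20.8% lower. Btg2, an antiproliferative gene, was higher by 1.17 (SE 0.25), Mcl1, an antiapoptotic BCL2 relative, by 0.34 (SE 0.10), and Rictor, of mTOR complex 2, by 0.47 (SE 0.11). Of 12 tested lymphoid transcription factors, 5 were higher and 2 lower (median 0.08). The E protein Tcf3 (-0.51, SE 0.12) and Satb1 (-0.52, SE 0.15) were lower, and Ikzf1 (-0.07, adjusted p = 0.544) and Runx1 (-0.14, adjusted p = 0.207), whose RUNX site was searched above, did not pass. The 5 that were higher, named after their values were seen, were Gata3, Tox, Ets1, Tcf7 and Ikzf2, by 0.59 (Ikzf2) to 2.64 (Tcf7).

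Beside 21.8% of all tested genes called higher and 20.8% lower, 6 of 10 tested genes of lymphoid priming were higher and 1 lower. The median log2 fold change of this list was 0.76. With the replicate number as a block 7 were higher and 2 lower. The count of lower genes was also 2 by DESeq2, by limma-trend with either prior count, with DESeq2 size factors, with 10 counts in every library as the filter, and without EpCAM+ replicate 4 or EpCAM- replicate 3. The cytokine receptor Flt3 (0.88, SE 0.21) and Lsp1 (1.63, SE 0.27) were higher, and Cd27 did not pass (0.33, adjusted p = 0.155) except with the block (adjusted p = 0.0274) or without EpCAM- replicate 2. Interferon-inducible GTPases, another GTPase family of immunity, moved mostly the same way as the Gimap members, with 11 of 15 tested genes higher, 1 lower (Gbp3, named after its value was seen, -0.38, SE 0.13) and a median of 1.21. Gbp3 no longer passed without EpCAM+ replicate 2, 3 or 4 or without EpCAM- replicate 1 or 2. Tgtp2 was higher by 0.72 (SE 0.14), Igtp by 0.54 (SE 0.16) and Gbp7 by 0.32 (SE 0.09), and Irgm1 did not pass (0.11, adjusted p = 0.367). Igtp lost its call without EpCAM- replicate 2 or 3, and Gbp7 without replicate 3 of either fraction. Without EpCAM+ replicates 1 and 4, this list had 7 genes higher, the quiescence list 5 and the lymphoid factors 3. Calls fell over all genes too in that setting, with 1819 of 14043 tested genes higher, against 2961 of 13560 in the main fit.

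Some markers of cell types that express Gimap genes differed between the fractions too, beside 21.8% of all tested genes called higher and 20.8% lower. Other markers had too few reads for a test or did not pass. The part of these cell types in the result was not tested. Most T cell markers were near 0: 12 of the 17 had too few reads for a test, Cd3e had 0 or 1 count in every library, and Cd3d, Cd3g and Trac had at most 12 counts in any. The 4 T cell markers called higher were the signaling genes Lck (1.34, SE 0.16) and Lat (1.03, SE 0.16), and Trbc1 and Cd4 at means under 2 CPM, which lost their calls in 4 and 6 of the 8 cases with 1 library left out. The summed level of the list was 127 to 163 CPM in EpCAM+ and 47.2 to 76.3 CPM in EpCAM- libraries, 90.6% to 96.8% of it from Lck and Lat. Of the NK and innate lymphoid list, 4 of 11 were tested. Klrk1 (240, 20, 79 and 374 counts in EpCAM+ and at most 14 in EpCAM-) and Rora (1.88, SE 0.24) were higher, and Gzmb was lower (-3.27, SE 0.40). The list's sum was 666 to 832 CPM in EpCAM+ and 694 to 896 CPM in EpCAM-, 94.7% to 98.6% of it from Nkg7, which did not pass (-0.13, adjusted p = 0.353).

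Of 11 B cell markers, 6 were tested and 2 were higher, Cd79a (556, 35, 88 and 76 counts in EpCAM+ and 9 to 29 in EpCAM-) and Ms4a1 (196, 21, 41 and 112 counts in EpCAM+ and at most 2 in EpCAM-). Cd79b, the partner of Cd79a in the B cell receptor and the source of most of the list's reads, measured 69.2 ± 3.76 against 56.3 ± 13.9 CPM (SD, n = 4) and did not pass (0.30, adjusted p = 0.120) except with the block (adjusted p = 0.0370) or without EpCAM- replicate 2. Vpreb1, of the surrogate light chain, did not pass either (0.09, adjusted p = 0.776). The B cell regulator Pax5 was at 0 in all 8 libraries, and the list summed to 76.8 to 126 CPM in EpCAM+ and 49.9 to 84.8 CPM in EpCAM-. Of 8 plasma cell markers, 3 of the 5 tested were higher. Jchain, of polymeric antibodies, had 53916, 3902, 7671 and 3069 counts in EpCAM+ and 0 to 4 in EpCAM-, and Mzb1 had 754, 109, 146 and 98 against 2 to 6. Derl3, named after its value was seen, was higher by 1.66 (SE 0.49), but not without EpCAM- replicate 4. Xbp1, the plasma cell factor that other secretory cells use as well, was similar in level (238 ± 75.5 against 225 ± 39.2 CPM, SD, n = 4) and did not pass (0.08, adjusted p = 0.767). Sdc1, which encodes CD138, had 1.27 (adjusted p = 0.0704) and passed when EpCAM+ replicate 4 or EpCAM- replicate 1 was left out and, at an adjusted p of 0.00444, with the block. The sums were 389 to 3978 CPM and 171 to 259 CPM. EpCAM+ replicate 1, the highest for Jchain, was the highest of its fraction for Gimap1, Gimap4 and Gimap8, and without it all 8 members were again higher. Of 11 dendritic cell markers, 5 of the 9 tested were higher, Xcr1, Clec9a, Batf3, Itgax and Ly6d, all but Xcr1 named after their values were seen, and the sums were 239 to 604 CPM in EpCAM+ and 214 to 271 CPM in EpCAM-. Bst2 (-0.02), Tcf4 (0.23) and Ccr2 (1.16) did not pass, though Tcf4 did with the block (adjusted p = 0.0488) and Ccr2 without EpCAM+ replicate 2. Without EpCAM+ replicates 1 and 4, the dendritic list had 3 genes higher and 1 lower, the T cell list 2 higher and the B cell list 1. Over all genes, 1819 of 14043 were then called higher, against 2961 of 13560 in the main fit.

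Stem cell genes rose and myeloid progenitor genes fell beside the family, where 21.8% of all tested genes were called higher and 20.8% lower. Of 11 tested stem cell markers 10 were higher and none was lower by edgeR, by DESeq2 or at an unadjusted p under 0.05 (median 1.73), with sums of 714 to 997 CPM in EpCAM+ and 219 to 411 CPM in EpCAM-. The transcription factor Hlf was higher by 1.91 (SE 0.22), the homeobox factor Meis1 by 1.20 (SE 0.13), and Procr, the endothelial protein C receptor, by 2.36 (SE 0.46). Of 9 tested endothelial markers, 5 were higher, Tie1, Esam, Tek, Emcn and Robo4, which stem cells of the marrow express as well, and Plvap was lower (-2.12, SE 0.24), with the last 4 named after their values were seen, while the defining Cdh5 and Cldn5 had at most 3 counts in any library. Egfl7, the most abundant of the list, had 0.36 (adjusted p = 0.0701) and passed with the block (adjusted p = 0.00426), with upper-quartile scaling or library totals, and without EpCAM- replicate 2. Pecam1 did not pass (-0.14, SE 0.10). The sums were 374 to 479 CPM in EpCAM+ and 224 to 273 CPM in EpCAM-. Of 10 myeloid progenitor markers 8 were lower (median -3.58), among them Mpo (-3.74, SE 0.23), Elane (-4.86, SE 0.51), Ctsg (-3.46, SE 0.42) and Prtn3 (-2.06, SE 0.21), genes of granule proteins, and 1 was higher, Lyz2 (0.68, SE 0.14, named after its value was seen). Their sums were 1660 to 2480 CPM in EpCAM+ and 12445 to 20055 CPM in EpCAM- libraries. Members and stem cell genes were thus higher, and granule genes lower, in the same 4 libraries.

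**Figure D5:**
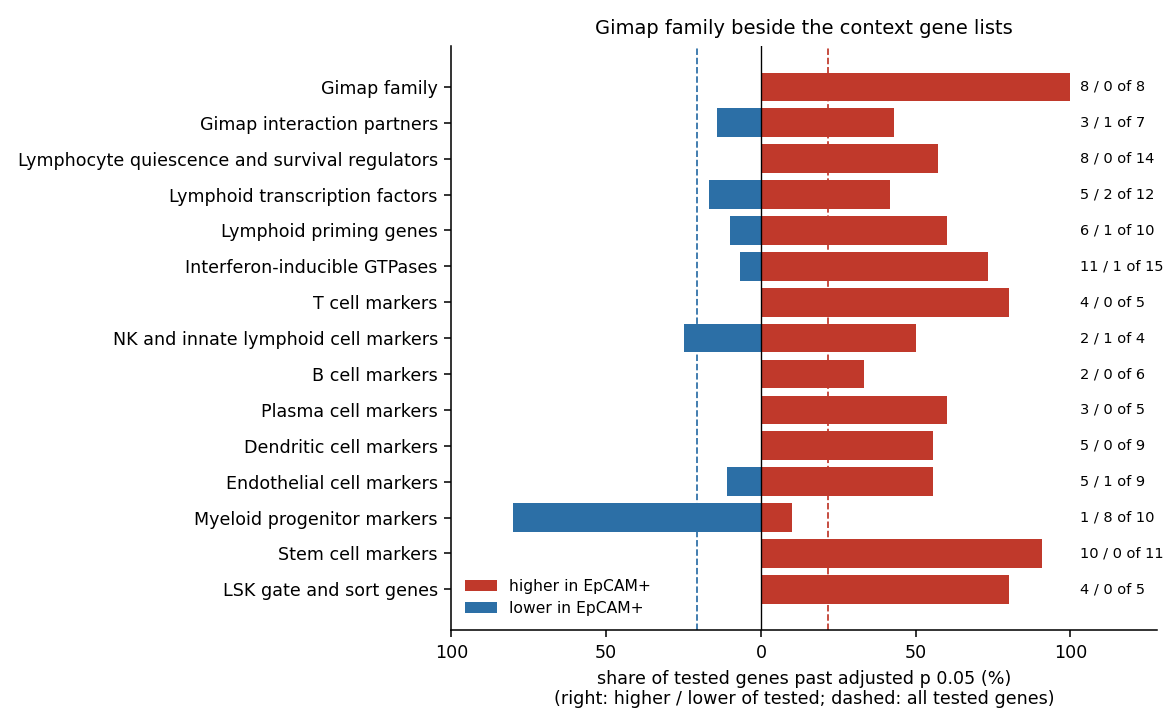
Share of the tested genes of each list past adjusted p 0.05 (horizontal axis, percent), higher in EpCAM+ to the right in red and lower to the left in blue, with the counts at the right and the shares of all tested genes (21.8% and 20.8%) as dashed lines. The Gimap family (8 of 8) and the stem cell markers (10 of 11) lie furthest to the right, and the myeloid progenitor markers (8 of 10) furthest to the left.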

How the data were processed

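RNA was amplified with SMART-Seq v4 from sorted cells, and the study gives 4 mice per genotype. All 8 libraries are of 1 genotype, and the sources do not say whether both fractions came from the same mice. Per the labels, libraries were made from 1 ng of cDNA with a kit that does not mark strand. The submitters' processing notes name STAR 2.6.1d, featureCounts 1.5.0-p3, DESeq2 1.20.0 and GRCm38.p6, and counting options are not given in the sources used here. The deposited values are whole-number read counts per gene and FPKM computed by the authors, and coordinates and biotypes were used as other columns that the authors deposited. The authors' fold changes and p-values were not used. Gene lengths and coordinates of the members match GENCODE M21.

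Counts were filtered with filterByExpr, scaled by TMM and tested with edgeR 4.0.16 (R 4.3.3), quasi-likelihood, two-sided, Benjamini-Hochberg over 13560 genes, threshold 0.05, fraction as the only term. The study names DESeq2 but no model terms. SEs come from the F statistic. CPM were scaled by library total times TMM factor, with a prior count of 2 for log2 CPM. A count of 3 corresponds to 0.168 to 0.222 CPM and covers counting error only. Reads carry no molecular identifiers.

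The members and gene lists were chosen with earlier results of these data known, so no list is an independent test. Genes named are the members, genes that overlap them, the 3 nearest tested genes on each side, up to 4 tested genes of each list with the highest mean CPM, defining markers at 0, 5 genes by each measure of likeness, Epcam and Zeb1.

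Same-numbered libraries deviated together from their fraction means (r across genes 0.205 to 0.356 in 4 pairs, against -0.216 to 0.0396 in 12 other pairs), so the numbers pair the samples. The labels do not say what a number shares. The main fit leaves this pairing out. With the replicate number as a block, 3465 genes were called higher and 3353 lower, against 2961 and 2818 in the main fit. The procedure was tested on simulated data. Open reading frames were aligned with Biopython 1.88. Alternatives were DESeq2 1.42.0, limma-trend 3.58.1, other scaling, other filters, the replicate block and left-out libraries. Proteins were not analysed here. Some genes of the lists are counted but not reported here by name.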

Additional observations from a re-analysis of the deposited data

Results flagged for a closer look

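In each fraction, the highest or lowest of the 4 libraries was singled out where its gap to the next one exceeded Dixon's 95% limit, which chance does for about 1 in 20 groups of 4. Of 168 groups examined, 13 (7.74%) met this, and none was a Gimap member or the family's sum. EpCAM+ replicate 1 was the highest for the antibody and B cell genes Jchain (3525 CPM), Mzb1 (49.3 CPM), Sdc1 (25.7 CPM) and Cd79a (36.3 CPM). EpCAM+ replicate 3 was the highest for the stem cell factor Hlf (165 CPM) and for Runx1 (73.9 CPM), and EpCAM+ replicate 4 for Hsd17b14 (2.92 CPM), a gene with a pattern like the family's. Among EpCAM- libraries, replicate 1 was the lowest for Bax (106 CPM) and the highest for Trbc1 (0.811 CPM), and replicate 2 was the highest for Cd4 (1.63 CPM) and for Malsu1 (41.2 CPM). EpCAM- replicate 3 held the only reads of Ms4a1 in its fraction (0.137 CPM), and EpCAM- replicate 4 was the lowest for Xbp1 (167 CPM).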

How the results depend on the processing

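With 10 counts in every library as the filter, 5 members could be tested and all 5 were higher, and Gimap3, Gimap4 and Gimap8 were left out by the filter itself. Under the 16 other planned settings 8 of 8 members were higher and none was lower, and with 1 library left out the count of higher members ran from 8 to 8 and that of lower ones from 0 to 0. With the replicate number as a block, 8 members were higher, 0 lower, and no member's call changed. Calls of named list genes that the block changed are given beside those genes. For Zeb1, the genes near the cluster and the genes with a pattern like the family's, the alternative settings were not looked up. The summed family level was 690 CPM in EpCAM+ and 253 CPM in EpCAM- with library totals in place of TMM.

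Of 141 fold changes of members under an alternative, none changed sign, and 140 kept their call. The exception was Gimap4 without EpCAM+ replicates 1 and 4, chosen after seeing the data, which leaves 2 EpCAM+ libraries. The adjusted p of Gimap9 ran from 0.000132 to 0.0146 and that of Gimap3 from 4.79e-05 to 0.0389. Of 504 counts of called list genes, 467 stayed within 1.5 times, and 37 did not, of which most are counts of 1 or 2. Deposited FPKM moved 10 of 16 shares of the family level by more than 1 SD. Depth limits Gimap3 and Gimap4, which had as few as 0 and 1 counts in a library.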
